A study of Mus musculus with 23 samples.

Results

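The genes of glycolysis and glucose transport were followed through 23 mouse RNA-seq libraries of muscle progenitors and satellite cells, which renew skeletal muscle as its stem cells. Members were matched by gene symbol, and the set was chosen with earlier results of these data known. The 33 symbols matched 34 of the 21264 genes of the expression table, because Aldoa is the symbol of 2 genes, the second being ENSMUSG00000114515, which lies next to Aldoa on chromosome 7 and is given by its identifier. The set runs from glucose transporters through the enzymes of the pathway to the carriers of lactate and the kinases that hold back pyruvate dehydrogenase. It holds 5 forms typical of skeletal muscle, namely Hk2, Pfkm, Pgam2, Eno3 and Slc2a4.

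As background, glycolysis splits glucose into pyruvate and yields ATP without oxygen, and pyruvate either enters the mitochondria through pyruvate dehydrogenase or is turned into lactate and exported. Most steps are served by paralogous genes: widely expressed forms such as Eno1 and Pgam1 are joined in differentiating muscle by muscle forms such as Eno3 and Pgam2, and the insulin-responsive transporter GLUT4 (Slc2a4) belongs to mature fibres. Quiescent satellite cells are known for a mainly oxidative metabolism that turns towards glycolysis on activation, and many genes of the pathway are known targets of the hypoxia-inducible factors.

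Every library derives from iPax3, a line of myogenic progenitors made from pluripotent stem cells by inducing the muscle lineage factor Pax3. Cultured progenitors gave 7 libraries, 4 of control genotype (WT) and 3 of N1OE, in which NICD1, the active inner part of Notch1, is overexpressed. The other 16 were labelled as satellite cells of donor origin recovered after engraftment, with 9 control (WT), 4 N1OE and 3 N1KO libraries, the last from cells with Notch1 knocked out. The design asks what gain and loss of Notch1 change in the progenitors and in the satellite cells they form. Setting and kit cannot be told apart, since Trizol and TruSeq stranded mRNA served the cultured cells, while Buffer RLT with beads, NEBNext low-input cDNA and Nextera XT served the re-isolated ones. The sources used here do not give the promoter of NICD1, the number of knockout clones, the host mice or the time after engraftment. The labels do not say whether replicates were separate cultures or animals, and p-values therefore reflect the spread between these libraries only, which may be technical.

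Library totals were 11637817 to 29154176 reads, and levels are in CPM (reads scaled to the library total). Notch1 stood at 61.3 to 105 CPM in cultured control and 297 to 370 CPM in cultured N1OE. Among re-isolated cells, controls held 14.9 to 174 CPM, N1OE 98.1 to 257 CPM and N1KO 15.6 to 52.6 CPM, and the N1KO range overlaps that of the controls. The satellite cell gene Pax7 was at 11.5 to 154 CPM in re-isolated libraries and at or under 0.891 CPM in cultured ones. A suffix, GoF, stands in the headers of all 4 cultured controls, of cultured N1OE replicate 1 and of re-isolated control replicates 1, 4, 7, 8 and 9, and is not explained by the labels. In culture the mark and the genotype are therefore partly joined, since N1OE replicates 2 and 3 lack it, and after engraftment no N1OE or N1KO library has it. Cultured N1OE replicates 2 and 3 were also close to each other and apart from replicate 1 in several members, though not all. Slc2a3 read 60.2 and 60.2 against 35.2 CPM, and Pfkl 103 and 106 against 181 CPM. The labels do not say whether these libraries are independent. The 5 marked re-isolated controls stood apart from the 4 unmarked ones (replicates 2, 3, 5 and 6), and the main results in re-isolated cells are given with both and with each set. Notch1 itself read 136 to 174 CPM in unmarked and 14.9 to 88.9 CPM in marked controls. N1KO lay below every unmarked control and overlapped the marked ones. N1OE lay above every marked control and overlapped the unmarked ones. Genes with 1 read were 4.17 to 5.91 times as many as genes with 2 reads in marked controls and 4.18 to 6.82 times in N1OE, but 1.08 to 1.5 times in unmarked controls and 1.25 to 1.4 times in N1KO. Markers of fibro-adipogenic cells summed to 1351 to 7858 CPM in marked controls, 155 to 888 in unmarked controls, 537 to 1131 in N1OE and 3577 to 9507 in N1KO. The part of these differences in the results below was not tested.

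The 34 genes together took 0.543% to 0.667% of the reads in the cultured libraries. In re-isolated cells they took 1.37% to 1.66% in unmarked controls, 0.585% to 0.984% in marked controls and 0.553% to 1.08% in N1OE. The N1KO libraries were spread from 0.442% to 1.53%, so they overlapped both control sets. In bulk RNA fewer cells of a type and less RNA per cell cannot be told apart. Scaled for length, the highest medians in re-isolated controls were those of Aldoa (531 CPM per kilobase of exon), Pkm (522) and Ldha (368), and in cultured controls those of Aldoa (328), Pgk1 (225) and Pkm (191).

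**Figure D1:**
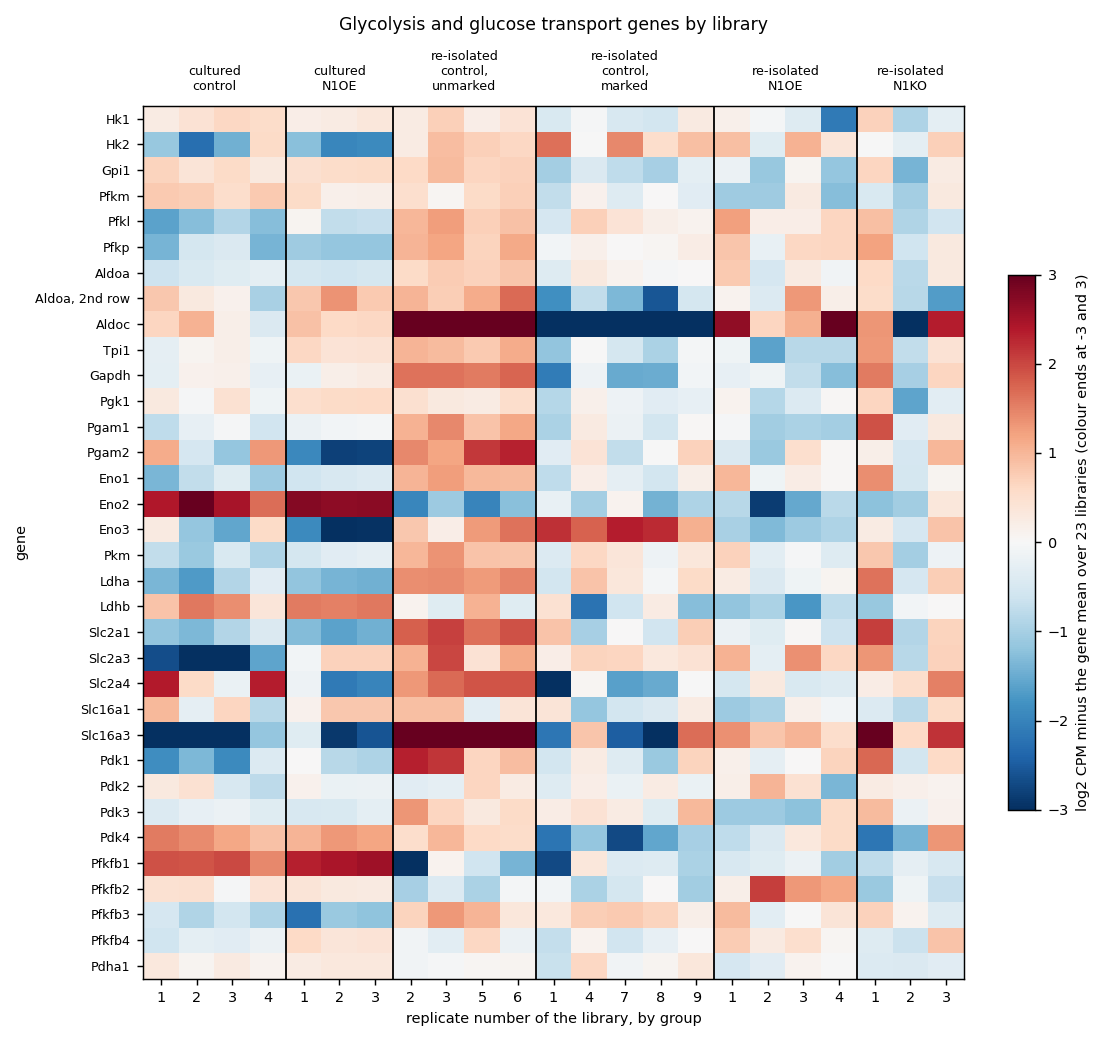
Log2 levels of the 34 genes (one line each, grouped by role) in all 23 libraries (columns, by group), each gene relative to its own mean, as the colour scale gives. Most genes are highest in the unmarked re-isolated controls, where the set takes 1.37% to 1.66% of the reads, and Eno3 is highest in marked ones.

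Limma called 4 of 34 members with N1OE in culture and 3 of 34 after engraftment against all controls, near the shares of all genes. Against unmarked controls alone, 1 member was higher and 14 lower after engraftment, beside 9.33% and 10.1% of all genes. In culture Slc2a3, Pfkfb4 and Tpi1 rose and Pgam2 fell, which is 3 higher and 1 lower of 34 in limma's test adjusted over all genes, against 4.73% of all genes higher and 6.03% lower. Of all genes called there 44% were higher, and 33.6% with median ratio scaling. Among marked libraries alone, with 1 N1OE library assumed to vary like the 4 controls, limma called 0 members and 0 genes in all. There the log2 fold changes were 2.94 for Slc2a3, 0.95 for Pfkfb4, 0.65 for Tpi1 and -2.12 for Pgam2 (limma adjusted p of 0.54 to 0.667; unadjusted p = 0.0322, 0.0321, 0.0317 and 0.0917). After engraftment Pfkfb2 rose and Eno3 and Pdk3 fell, 1 higher and 2 lower of 34, where 3.78% of all genes rose and 3.29% fell. The median over the members was 0.12 in culture and -0.35 after engraftment on the log2 scale, beside 0.07 and 0.06 over all genes tested. Of the 5 muscle forms 1 fell in each setting (Pgam2 in culture, Eno3 after engraftment) and 0 rose, with medians of -2.18 and -0.85. Against unmarked controls 4 of the 5 were lower after engraftment (median -1.96), where 10.1% of all genes were lower. Against marked ones 1 was lower (median -0.42), where 5.47% of all genes were.

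N1KO gave 0 calls among the 34 members in limma's test, where 0.466% of all genes rose and 0.191% fell. Of the members 1, Eno3, had an unadjusted p under 0.05, and limma-voom also called 0. N1OE against N1KO called 1 member, Pfkfb2, as higher (2.92% of all genes were higher and 4.43% lower), and median ratio scaling shifts all genes by -0.11 there. The N1OE effect after engraftment differed from that in culture for 1 member, Slc2a3, and was the lower one there (2.36% of all genes had the higher and 0.91% the lower effect after engraftment).

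**Figure D2:**
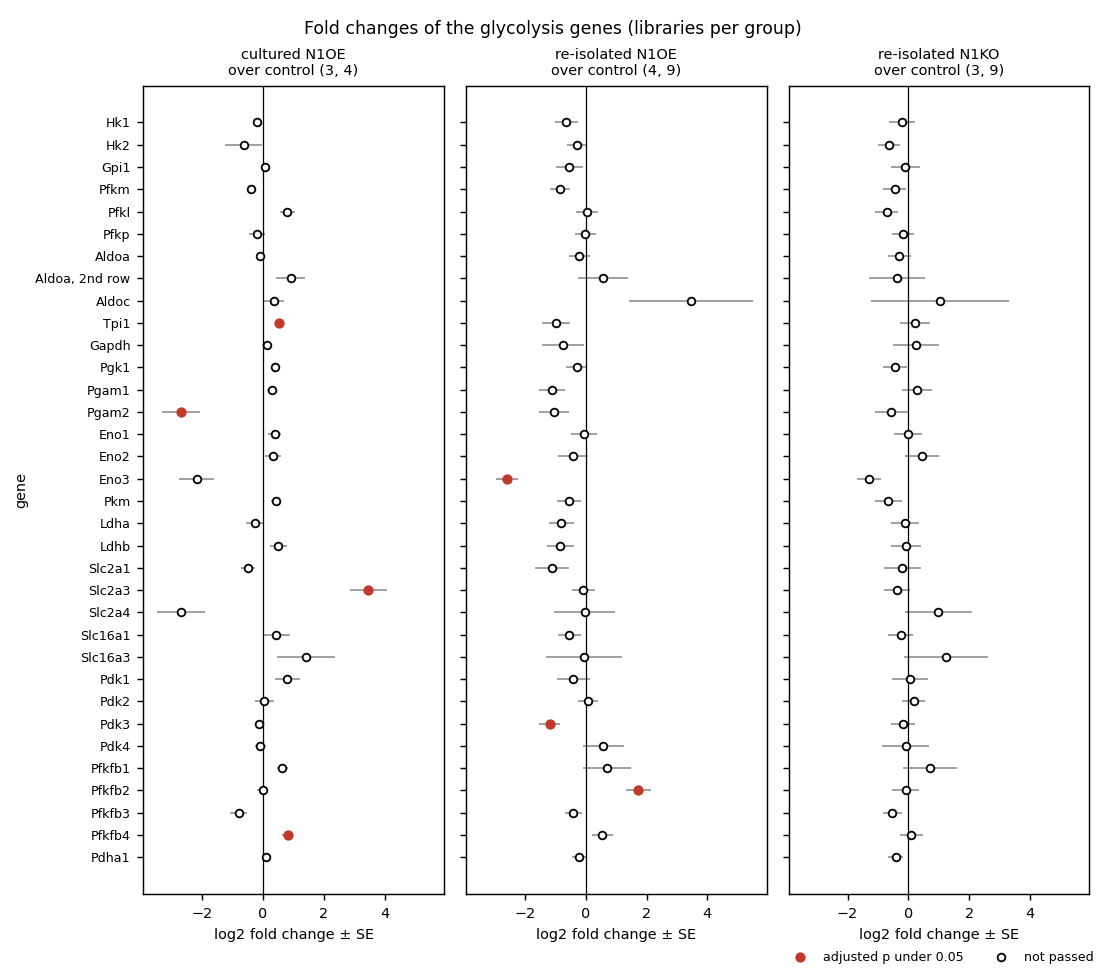
Log2 fold change with its standard error from limma for each of the 34 genes, for N1OE in culture and for N1OE and N1KO after engraftment, each against its control group; filled red points have an adjusted p under 0.05. Slc2a3 at 3.46 and Pgam2 at -2.69 are called in culture, Eno3 at -2.58 and Pfkfb2 at 1.73 after engraftment, and no point is called for N1KO.

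The 2 sets of controls differed in more members than any genotype did from the controls as a whole. In marked libraries 20 of the 34 members were lower and 0 higher, where 14% of all genes were lower and 13.6% higher, and the median over the members was -0.78 against 0 over all genes. Of these calls, those of Aldoa, ENSMUSG00000114515, Pfkm, Pkm, Pfkl and Pgk1 were lost in 6 to 8 of 9 fits that leave out 1 library. The description of control replicate 7 lacks the suffix that its column header has. With the sets formed by description, 0 members and 0 genes of the whole table passed in limma's test, and the 20 had adjusted p of 0.25 to 0.355. Those sets place replicate 7 with the unmarked libraries. It had 4.17 times as many genes with 1 read as with 2, where unmarked controls had 1.08 to 1.5 times. Its Aldoc level was 0.0533 CPM, beside 39.2 to 74.6 CPM in unmarked controls. Against marked controls N1OE had 2 members higher and 1 lower of 33 tested (6.26% and 5.47% of all genes), and against unmarked controls 1 higher and 14 lower of 34 (9.33% and 10.1%). N1KO had 2 higher and 1 lower of 33 against marked controls (2.59% and 1.33% of all genes), and 0 higher and 2 lower of 34 against unmarked ones (3.88% and 3.41%).

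**Figure D3:**
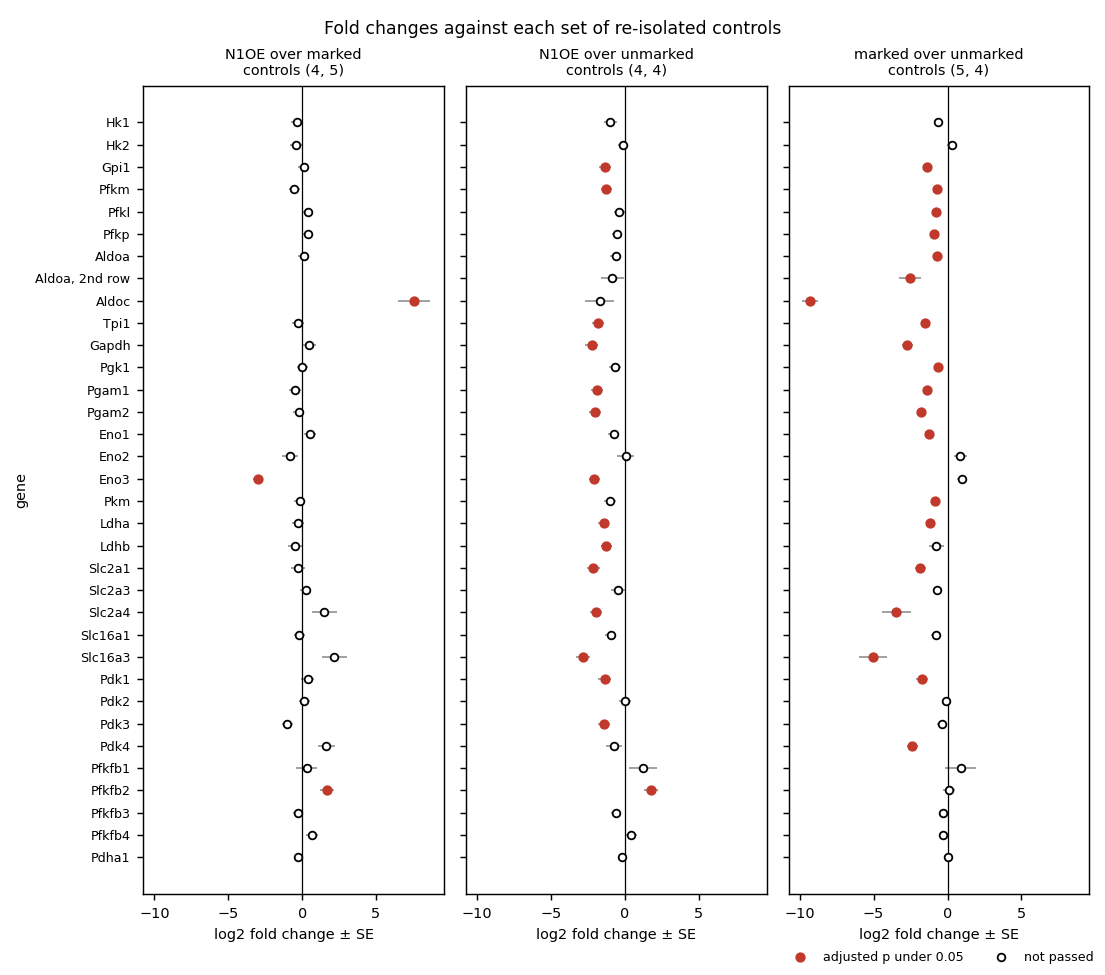
Log2 fold change with its standard error for the members in re-isolated N1OE, taken against the marked and the unmarked controls as 2 separate fits. A further panel gives marked against unmarked controls. For N1OE 14 members are called lower against unmarked controls and 1 against marked ones, and Eno3 is the member called lower against both, at -2.06 and -3.0.

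Among the glucose transporters Slc2a3 (GLUT3, a high-affinity transporter best known from neurons, at chr6:122727809-122801640 on GRCm38) had the largest rise with N1OE in culture. Cultured controls read 5.84, 1.90, 3.02 and 12.4 CPM and cultured N1OE 35.2, 60.2 and 60.2 CPM. The groups did not overlap, and the log2 fold change was 3.46 ± 0.61 (SE, n = 3 and 4, limma adjusted p = 0.0178). Without any one of the 3 N1OE libraries the limma adjusted p was 0.0532 to 0.0938. After engraftment controls were at 43.1 to 150 CPM with a median of 58.5, and N1OE at 76.9, 30.6, 96.9 and 57.3 CPM. These overlapped (-0.07 ± 0.39, limma adjusted p = 0.933). The difference between the effects (-3.54 ± 0.69, limma adjusted p = 0.00358) passed in all 30 alternative fits. None of these left out cultured N1OE replicates 2 and 3 together, the libraries without the mark. In marked cultured libraries alone, with 1 N1OE library, the log2 fold change was 2.94. Re-isolated controls were higher than cultured ones (3.79 ± 0.42, limma adjusted p = 2.69e-06).

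Slc2a1 (GLUT1, the widely expressed transporter) differed between the control sets. Unmarked controls read 345, 412, 314 and 376 CPM and marked controls 181, 50.3, 101, 66.5 and 166 CPM, with no overlap (-1.84 ± 0.35, limma adjusted p = 0.00344). N1OE stood at 87.8, 78.0, 102 and 65.3 CPM, within the marked range and below every unmarked library. Its change did not pass against marked controls (-0.29 ± 0.47, limma adjusted p = 0.77) and was a fall against unmarked ones (-2.13 ± 0.43, limma adjusted p = 0.00165). N1KO read 420, 54.3 and 159 CPM, which spans both sets. In culture Slc2a1 was at 32.8 to 73.4 CPM and did not pass (-0.49 ± 0.22, limma adjusted p = 0.164).

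Slc2a4 (GLUT4, the transporter that insulin moves to the surface of muscle and fat cells) was at 24.0 CPM or less in all libraries. Cultured controls read 24.0, 6.87, 3.99 and 23.7 CPM and cultured N1OE 4.16, 1.01 and 1.12 CPM. The groups overlapped slightly and the change did not pass (-2.70 ± 0.79, limma adjusted p = 0.0696). Unmarked controls read 11.5, 15.1, 17.3 and 17.1 CPM, all above the marked ones at 0.0346, 4.78, 1.44, 1.58 and 4.56 CPM (-3.46 ± 0.95, limma adjusted p = 0.0192). Without unmarked replicate 3 the limma adjusted p of that difference was 0.0513. Re-isolated N1OE stood at 3.19, 5.67, 3.35 and 3.53 CPM, below every unmarked control and overlapping the marked ones.

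At the first step of the pathway, Hk1 (the widely expressed hexokinase) and Hk2 (the hexokinase of muscle and heart) passed in no comparison between genotypes or between control sets. Hk2 was at 23.9, 10.9, 19.4 and 79.1 CPM in cultured controls and at 52.7 to 167 CPM in re-isolated ones. It was higher after engraftment (1.85 ± 0.41, limma adjusted p = 0.00139), and the kit changes with the setting here. Gpi1, which turns glucose phosphate into fructose phosphate, read 202, 304, 241, 206 and 334 CPM in marked and 622, 798, 636 and 662 CPM in unmarked controls, with no overlap (-1.42 ± 0.22, limma adjusted p = 0.00115).

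Phosphofructokinase, the committed step, has 3 genes. Pfkm, the muscle form, read 151, 146, 126 and 151 CPM in cultured controls and 131, 97.5 and 99.4 CPM in cultured N1OE, which overlapped (-0.40 ± 0.13, limma adjusted p = 0.0886). Pfkl, the liver form, read 56.8, 70.6, 93.8 and 70.6 CPM in those controls and 181, 103 and 106 CPM in N1OE; the groups did not overlap, but the change did not pass (0.80 ± 0.24, limma adjusted p = 0.0742). After engraftment N1OE read 41.6, 41.7, 106 and 35.9 CPM for Pfkm, against 52.1 to 143 CPM in controls. Pfkm was lower than in unmarked controls (-1.25 ± 0.37, limma adjusted p = 0.0207) and did not pass against marked ones (-0.52 ± 0.35, limma adjusted p = 0.397). Pfkp, the platelet form, passed with no genotype and was lower in marked than in unmarked controls (-0.93 ± 0.19, limma adjusted p = 0.00458).

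The 4 Pfkfb genes make or remove the sugar bisphosphate that switches phosphofructokinase on. Pfkfb2, best known from heart and located at chr1:130689182-130729253, was the one member that rose with N1OE after engraftment against all controls and against each set. N1OE read 6.11, 22.9, 13.5 and 12.3 CPM, unmarked controls 2.70, 4.09, 2.77 and 5.18 CPM, and marked controls 5.11, 2.77, 3.78, 5.51 and 2.62 CPM. Every N1OE library was above every control, replicate 1 by a small margin. The change was 1.73 ± 0.40, limma adjusted p = 0.0112, with 1.69 ± 0.46, limma adjusted p = 0.0188 against marked and 1.78 ± 0.47, limma adjusted p = 0.0122 against unmarked controls. Without N1OE replicate 2 the limma adjusted p was 0.0656. N1KO read 2.47, 4.96 and 3.33 CPM, and N1OE exceeded it (1.83 ± 0.51, limma adjusted p = 0.0311), a call lost in 6 of 7 fits that leave out 1 library (limma adjusted p up to 0.157). In culture both genotypes lay at 5.34 to 7.66 CPM (-0.02 ± 0.19, limma adjusted p = 0.963), and the difference between the settings did not pass (1.75 ± 0.55, limma adjusted p = 0.0882).

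Pfkfb4, at chr9:108991778-109032228, read 5.56, 6.94, 6.73 and 7.55 CPM in cultured controls and 12.9, 11.0 and 11.3 CPM in cultured N1OE. The groups did not overlap (0.81 ± 0.17, limma adjusted p = 0.0293). Leaving out any N1OE library, or control replicate 2, gave a limma adjusted p of 0.0658 to 0.126. After engraftment N1OE (8.82 to 14.5 CPM) overlapped controls (5.15 to 13.1 CPM) and did not pass (0.55 ± 0.34, limma adjusted p = 0.353), and the settings were not shown to differ (-0.26 ± 0.48, limma adjusted p = 0.872). Pfkfb3, known from proliferating cells, was at 40.8 to 55.2 CPM in cultured controls and 16.5, 36.1 and 33.5 CPM in cultured N1OE and did not pass (-0.80 ± 0.28, limma adjusted p = 0.108). Pfkfb1, the liver form, was at 2.14 CPM or less in re-isolated cells.

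The steps from aldolase to enolase hold abundant enzymes of all cells and the muscle forms Pgam2 and Eno3. Aldoa, the aldolase of muscle and most other tissues, read 720 to 2279 CPM in re-isolated and 821 to 1032 CPM in cultured cells and passed with no genotype. ENSMUSG00000114515 stayed at or under 2.17 CPM. Aldoc, the brain form, had 3 reads of 105679415 over the 5 marked controls. The unmarked controls read 66.7, 39.4, 74.6 and 39.2 CPM, 1931 times the marked level (95% exact interval 660 to 9367, from recovered reads taken as raw, counting error only). That difference between the control sets passed (limma adjusted p = 5.09e-06). N1OE read 22.3, 5.47, 7.39 and 72.6 CPM, 994 times the marked level (340 to 4823), and N1KO 8.83, 0.110 and 18.1 CPM, 320 times (109 to 1558). Against unmarked controls Aldoc was lower in N1KO (-4.14 ± 1.06, limma adjusted p = 0.0183). Cultured libraries lay at 2.56 to 7.27 CPM, so the marked controls and N1KO replicate 2 were the ones under 1 CPM.

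Tpi1, triose phosphate isomerase, read 305, 388, 420 and 339 CPM in cultured controls and 564, 490 and 499 CPM in cultured N1OE. The groups did not overlap (0.52 ± 0.13, limma adjusted p = 0.0443), and the call was lost in 6 of 7 fits without 1 library (limma adjusted p up to 0.152). After engraftment N1OE was at 336, 121, 206 and 209 CPM, below the unmarked controls at 632 to 794 CPM (-1.81 ± 0.39, limma adjusted p = 0.00283) and overlapping the marked ones at 163 to 368 CPM. Gapdh read 18.5 to 269 CPM over all libraries; its transcripts match 77 other annotated genes over at least 200 bases at 95% identity or more, so its level is uncertain. Unmarked controls read 249, 246, 236 and 269 CPM and marked ones 18.5, 72.1, 27.8, 28.4 and 76.0 CPM, with no overlap (-2.71 ± 0.39, limma adjusted p = 0.000733). Pgk1, which makes the first ATP of the pathway, read 153 to 718 CPM and passed only between the control sets (-0.68 ± 0.23, limma adjusted p = 0.0457).

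**Figure D4:**
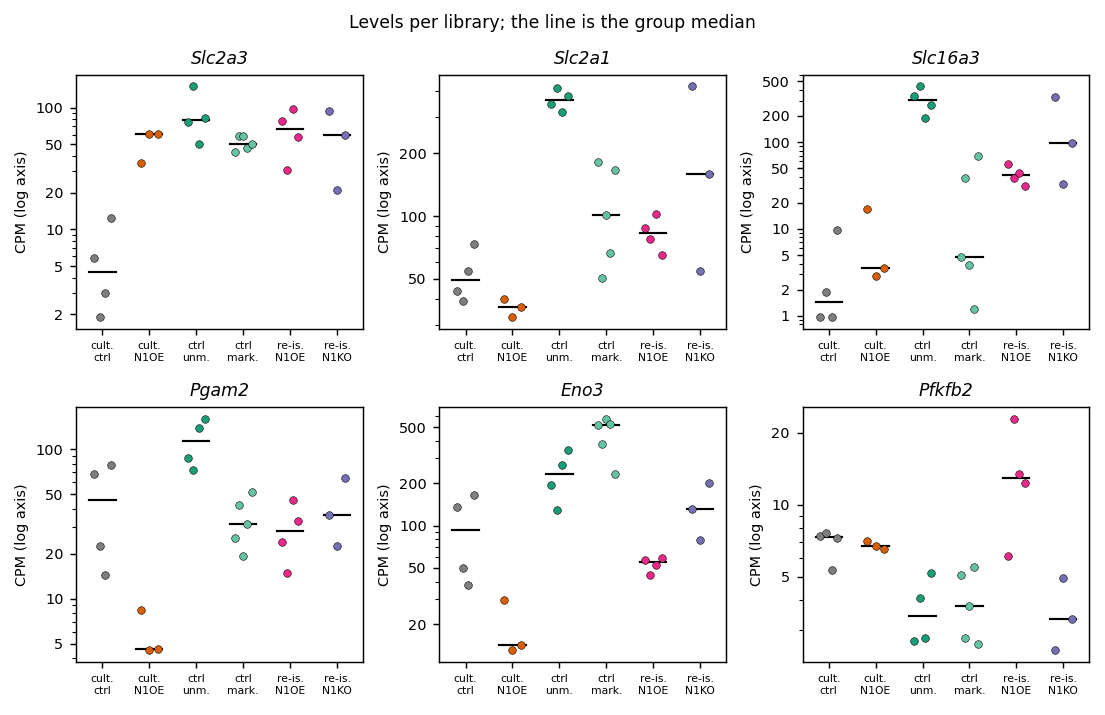
CPM on a log axis for Slc2a3, Slc2a1, Slc16a3, Pgam2, Eno3 and Pfkfb2 in every library, by group, with controls after engraftment split into marked and unmarked. Slc2a3 is at 1.90 to 12.4 CPM in cultured controls and at 20.9 CPM or more elsewhere, and Eno3 in re-isolated N1OE lies at 44.3 to 58.8 CPM, below all re-isolated controls.

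Pgam2, the muscle phosphoglycerate mutase at chr11:5801640-5803733, fell with N1OE in culture. Cultured controls read 68.9, 22.5, 14.4 and 79.0 CPM and cultured N1OE 8.37, 4.53 and 4.62 CPM, with no overlap (-2.69 ± 0.63, limma adjusted p = 0.0393). It did not pass in limma-voom (adjusted p = 0.128) or in 5 of 7 fits that leave out 1 library (up to 0.158). In the same libraries the summed level of 29 sarcomere genes was 12999, 6075, 1587 and 12663 CPM in controls. It was 1954, 536 and 540 CPM in N1OE. Of 27 tested, 9 fell with N1OE and 0 rose, where 6.03% of all genes fell and 4.73% rose. The part of the sarcomere change in the Pgam2 result was not tested. After engraftment Pgam2 was at 23.9, 14.9, 45.6 and 33 CPM in N1OE, 73.1 to 160 CPM in unmarked and 19.2 to 52.2 CPM in marked controls. It was lower than in unmarked controls in N1OE (-2.01 ± 0.40, limma adjusted p = 0.00146) and in N1KO (-1.54 ± 0.43, limma adjusted p = 0.0303). Neither passed against marked controls (limma adjusted p = 0.768 and 0.818). Pgam1, the widely expressed mutase, was likewise lower in N1OE than in unmarked controls (-1.88 ± 0.40, limma adjusted p = 0.00243) and in marked than in unmarked controls (-1.39 ± 0.27, limma adjusted p = 0.00334), and did not pass in culture (0.30 ± 0.17, limma adjusted p = 0.265).

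Eno3, beta-enolase, the enolase of muscle at chr11:70657202-70662513, was lower in N1OE against every set of controls after engraftment. N1OE read 56.7, 44.3, 52.7 and 58.8 CPM, unmarked controls 195, 128, 270 and 346 CPM, and marked controls 513, 379, 571, 523 and 234 CPM. Every N1OE library was below every control. The change was -2.58 ± 0.36, limma adjusted p = 0.000145, with -3.0 ± 0.33, limma adjusted p = 3.76e-06 against marked and -2.06 ± 0.35, limma adjusted p = 0.000457 against unmarked controls, and it passed in all 24 alternative fits. In culture N1OE read 29.8, 13.1 and 14.2 CPM against 135, 49.8, 37.7 and 165 CPM in controls, again with no overlap, but did not pass (-2.18 ± 0.58, limma adjusted p = 0.0561). The effects in the settings were not shown to differ (-0.40 ± 0.64, limma adjusted p = 0.846). N1KO read 132, 78.4 and 201 CPM and was lower than marked controls (-1.73 ± 0.36, limma adjusted p = 0.0107), but did not pass against all (-1.31 ± 0.40, limma adjusted p = 0.143) or unmarked controls (-0.78 ± 0.38, limma adjusted p = 0.249). Between the control sets the value was higher in marked libraries and did not pass (0.94 ± 0.33, limma adjusted p = 0.0527).

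Eno1, the widely expressed enolase, read 868 to 1918 CPM in re-isolated N1OE and 565 to 2265 CPM in controls and did not pass (-0.05 ± 0.43, limma adjusted p = 0.964). Its near-identical copy Eno1b stood at 114 to 1033 CPM, so the split of reads between them is uncertain. Eno2, the neuronal form, was at 23.8 to 58.9 CPM in culture and at 0.980 to 9.40 CPM after engraftment. The RefSeq promoters of Eno3 and Pgam2 (250 bases before to 50 after the start, GRCm38.p6) are shown because these muscle forms fell with N1OE, Eno3 after engraftment and Pgam2 in culture. Capitals mark matches on either strand to CANNTG, the E-box that MyoD family factors are known to bind.
Eno3, chr11:70656926-70657225, plus strand: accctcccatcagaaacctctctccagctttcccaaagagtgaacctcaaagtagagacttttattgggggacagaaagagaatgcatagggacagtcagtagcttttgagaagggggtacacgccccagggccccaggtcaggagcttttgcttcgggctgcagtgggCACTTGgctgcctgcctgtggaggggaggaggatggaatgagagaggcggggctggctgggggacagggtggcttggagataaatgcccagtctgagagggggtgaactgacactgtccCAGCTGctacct
Pgam2, chr11:5803747-5804046, minus strand: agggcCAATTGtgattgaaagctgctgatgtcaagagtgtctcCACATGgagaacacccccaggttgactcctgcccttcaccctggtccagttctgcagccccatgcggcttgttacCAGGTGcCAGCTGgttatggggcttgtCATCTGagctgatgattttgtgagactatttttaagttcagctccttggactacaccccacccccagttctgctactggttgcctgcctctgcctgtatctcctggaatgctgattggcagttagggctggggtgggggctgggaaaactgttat
The Eno3 window has 2 matches and that of Pgam2 has 5. At least 1 E-box stands in 72.3% of 32851 mouse promoters of this length and in 36 of the 50 promoters found for 31 of the 33 symbols. GTGGGAA, the core known for RBPJ, the DNA-binding partner of NICD1, occurs on either strand in 6.38% of all promoters and in 4 of the 50, those being 2 of Aldoc and 1 each of Pdha1 and Pdk4.

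Pyruvate kinase and lactate dehydrogenase close the pathway. Pkm read 1281 to 4356 CPM in re-isolated controls, 1296 to 2742 in N1OE and 835 to 2974 in N1KO, and passed with no genotype; gene totals do not separate its splice forms. Ldha, which favours lactate, was at 799, 504, 617 and 716 CPM in N1OE, 1767, 1799, 1640 and 1872 CPM in unmarked controls, and 459, 1219, 851, 647 and 1006 CPM in marked ones. N1OE lay below every unmarked and among the marked libraries. It was lower than unmarked controls (-1.44 ± 0.38, limma adjusted p = 0.0119) and did not pass against marked ones (-0.28 ± 0.40, limma adjusted p = 0.723). Ldhb, the form of oxidative tissue, was at 92.1 to 214 CPM in cultured and 15.3 to 146 CPM in re-isolated controls (-1.38 ± 0.47, limma adjusted p = 0.0192). It too was lower in N1OE than in unmarked controls (-1.27 ± 0.37, limma adjusted p = 0.0207).

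Lactate leaves through the carriers MCT1 (Slc16a1) and MCT4 (Slc16a3), the second being the form of glycolytic muscle and a known hypoxia target. For Slc16a3, cultured controls read 0.965, 1.90, 0.975 and 9.75 CPM, unmarked re-isolated controls 343, 442, 192 and 271 CPM, and marked ones 4.77, 38.5, 3.89, 1.21 and 69.0 CPM. N1OE stood at 56.1, 38.7, 43.9 and 31.5 CPM, below every unmarked control, and N1KO at 328, 32.8 and 97.5 CPM. Marked controls were lower than unmarked ones (-5.03 ± 0.95, limma adjusted p = 0.00323). N1OE was lower than unmarked controls (-2.84 ± 0.48, limma adjusted p = 0.00044), and against marked ones the sign was the opposite and did not pass (2.19 ± 0.85, limma adjusted p = 0.106). N1KO was higher than marked controls (3.47 ± 0.92, limma adjusted p = 0.0387). Slc16a1 lay between 35.9 and 158 CPM and passed in none of the comparisons.

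At the entry to the mitochondria, Pdha1, a subunit of pyruvate dehydrogenase, was at 110 to 270 CPM over all libraries with no call. Of the 4 kinases that inhibit the enzyme, Pdk3 (chrX:93764607-93832201) fell with N1OE after engraftment. N1OE read 21.0, 21.2, 19.2 and 67.2 CPM and controls 34.7 to 112 CPM with a median of 61.0, so that replicates 1, 2 and 3 lay below all controls and replicate 4 among them. The change was -1.19 ± 0.35, limma adjusted p = 0.0415. It did not pass against marked controls (-1.01 ± 0.39, limma adjusted p = 0.104), in limma-voom (adjusted p = 0.0512) or in 7 of 13 fits without 1 library (up to 0.155). Pdk1, a known hypoxia target, was lower in marked than in unmarked controls, at 22.6, 39.4, 25.5, 15.4 and 52.6 against 167, 148, 51.6 and 63.1 CPM (-1.74 ± 0.43, limma adjusted p = 0.0111). Pdk4, the kinase of fasting, was also lower there, at 2.66, 5.49, 1.86, 4.18 and 6.18 against 17.9, 24.6, 18.8 and 18.3 CPM (-2.39 ± 0.38, limma adjusted p = 0.00129). Pdk1 overlapped between the sets and Pdk4 did not. Pdk2 stayed between 17.8 and 93.6 CPM with no call.

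The ratio of a muscle form to its counterpart within a library does not depend on library scaling, and is given as log2 of the CPM ratio with no test. In culture all 5 muscle forms had a lower median ratio in N1OE than in control, and 3 of these ratios did not overlap. How many ratios of other gene pairs do not overlap was not computed. Pfkm to Pfkl was 0.42 to 1.41 in controls and -0.46 to -0.07 in N1OE, whereas Pfkm to Pfkp overlapped, at 0.57 to 1.80 and 0.92 to 1.26. The level of Pfkm itself overlapped, at 126 to 151 CPM in controls and 97.5 to 131 CPM in N1OE. Pfkl did not, at 56.8 to 93.8 and 103 to 181 CPM. Pgam2 to Pgam1 was -3.83 to -0.84 and -5.44 to -4.47, and Eno3 to Eno1 was -4.29 to -1.46 and -5.70 to -4.39. Hk2 to Hk1 and Slc2a4 to Slc2a1 overlapped. After engraftment Eno3 to Eno1 was -5.08 to -4.06 in N1OE, -2.22 to -0.14 in marked and -4.14 to -2.41 in unmarked controls, so that N1OE lay below the marked set and met the lower end of the unmarked. Pgam2 to Pgam1 overlapped there, at -3.10 to -1.24 in N1OE and -3.28 to -1.44 in controls. The other ratios overlapped too, in both directions. Medians were higher in N1OE than in all controls for Hk2 to Hk1 (0.23 and -0.34) and Slc2a4 to Slc2a1 (-4.47 and -4.90). They were lower for Pfkm to Pfkl (-2.57 and -1.42) and Pfkm to Pfkp (-1.77 and -0.81). By set, the Hk2 to Hk1 median was 0.23 in marked controls, the same as in N1OE, and -0.63 in unmarked ones. For Slc2a4 to Slc2a1 it was -5.35 in marked and -4.61 in unmarked controls, both below N1OE.

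**Figure D5:**
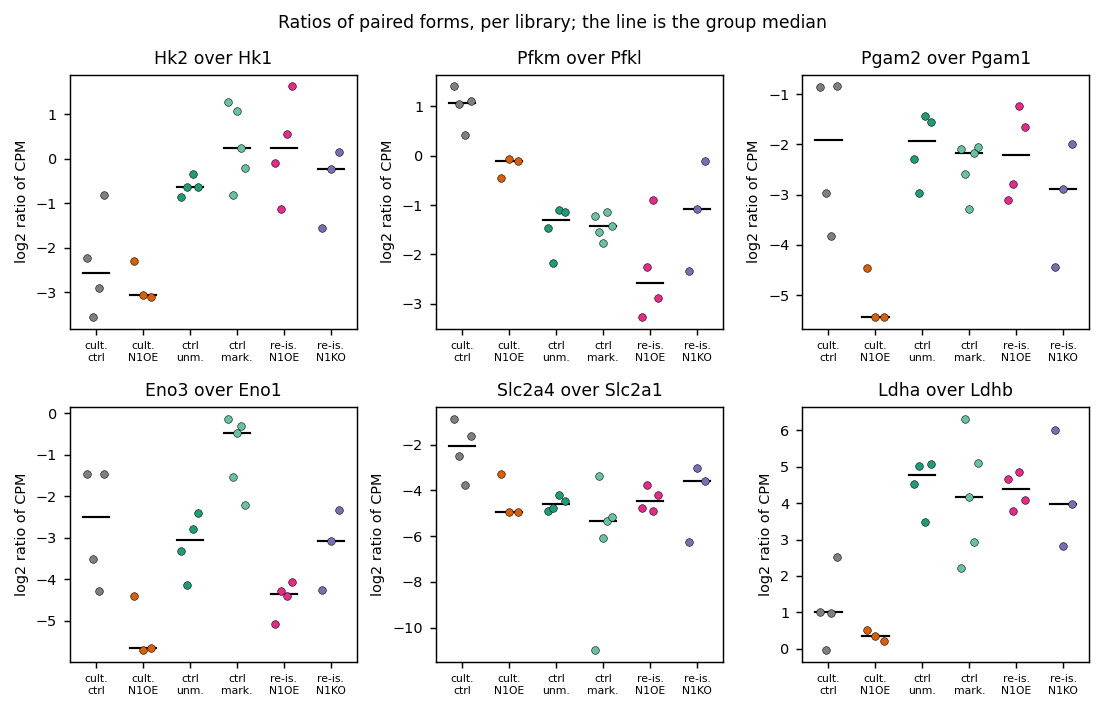
Log2 ratio of CPM for 6 pairs of genes in every library, by group. Cultured N1OE does not overlap cultured control for Pfkm over Pfkl, Pgam2 over Pgam1 and Eno3 over Eno1, and re-isolated N1OE is at -5.08 to -4.06 for Eno3 over Eno1.

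Between re-isolated and cultured controls 14 members were higher and 6 lower, against 24.1% and 33.9% of all genes. With marked controls alone, a comparison of marked libraries only, it was 10 higher and 10 lower of 33 tested (25.3% and 37.5% of all genes), with Gpi1, Aldoc and Slc2a4 among the lower. With unmarked controls alone it was 19 higher and 5 lower of 34 (27.8% and 37.9%). Median ratio scaling moves the median of all genes up by 0.26 here. Higher after engraftment were Slc16a3 (4.34 ± 1.44, limma adjusted p = 0.0176), Slc2a3, Eno3 (1.97 ± 0.44, limma adjusted p = 0.00141), Pdk1, Hk2, Ldha (1.81 ± 0.39, limma adjusted p = 0.00105), Slc2a1, Pfkl, Pfkp, Pfkfb3, Pkm, Eno1, Pdk3 and Aldoa. The call of Slc16a3 was also lost in limma-voom (adjusted p = 0.215), with no filter (0.0553), and without cultured control replicate 1 or 3 (0.0547 and 0.0549). With marked controls alone the values of Slc16a3, Aldoa, Eno1 and Pdk3 did not pass (limma adjusted p = 0.136, 0.0683, 0.0582 and 0.0503). Lower were Eno2 (-3.47 ± 0.40, limma adjusted p = 3.74e-06), Pfkfb1, Pdk4, Ldhb, Pfkfb2 and Pfkm. With median ratio scaling Ldhb, Pfkfb2 and Pfkm did not pass (limma adjusted p = 0.0618, 0.115 and 0.177).

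The hypoxia response, glycogen and sarcomere lists moved between the control sets beside the members, and their part in the members' difference was not tested. Of 17 hypoxia response genes 13 were lower and 2 higher in marked than in unmarked controls, beside 14% and 13.6% of all genes, with a median of -2.18 against 0 over all genes, and Ndrg1 (-3.27 ± 0.31, limma adjusted p = 0.000109), Ankrd37 (-3.59 ± 0.35, limma adjusted p = 0.000123) and Fam162a (-2.34 ± 0.30, limma adjusted p = 0.000423) had the smallest p. Summed, this list read 4626, 5824, 3332 and 4082 CPM in unmarked and 2365, 1772, 2439, 1775 and 1995 CPM in marked controls, 2606, 1367, 2380 and 2179 CPM in N1OE and 5218, 1707 and 3433 CPM in N1KO. The unmarked controls lay above all marked and all N1OE libraries, and N1KO spanned both. With N1OE 0 of the 17 passed against all or marked controls in limma's test. Against unmarked controls 9 fell and 1 rose, beside 10.1% and 9.33% of all genes. Of 20 glycogen genes 11 were lower and 0 higher in the marked set, among them Gbe1, the branching enzyme (-3.24 ± 0.43, limma adjusted p = 0.000542), and of 28 sarcomere genes 20 were lower and 2 higher.

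The RefSeq promoters of Slc16a3, Slc2a1 and Aldoc (the first of 2 for Aldoc) are shown. These genes are among the members with no overlap between the control sets, and not all such members have a match. Capitals mark matches on either strand to the core ACGTG that hypoxia-inducible factors are known to bind and to its other common form, GCGTG.
Slc16a3, chr11:120948817-120949116, plus strand: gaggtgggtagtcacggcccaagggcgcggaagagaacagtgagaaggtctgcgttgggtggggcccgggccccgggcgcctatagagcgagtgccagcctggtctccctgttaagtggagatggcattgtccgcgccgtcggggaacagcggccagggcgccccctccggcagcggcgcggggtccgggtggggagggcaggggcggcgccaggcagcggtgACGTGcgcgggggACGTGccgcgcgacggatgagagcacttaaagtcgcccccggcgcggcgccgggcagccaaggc
Slc2a1, chr4:119108495-119108794, plus strand: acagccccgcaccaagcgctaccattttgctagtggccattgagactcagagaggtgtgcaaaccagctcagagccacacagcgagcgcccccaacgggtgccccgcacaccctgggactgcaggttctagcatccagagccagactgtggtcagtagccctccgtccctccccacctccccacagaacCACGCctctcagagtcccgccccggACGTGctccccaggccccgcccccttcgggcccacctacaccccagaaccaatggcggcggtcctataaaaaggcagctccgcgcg
Aldoc, chr11:78322823-78323122, plus strand: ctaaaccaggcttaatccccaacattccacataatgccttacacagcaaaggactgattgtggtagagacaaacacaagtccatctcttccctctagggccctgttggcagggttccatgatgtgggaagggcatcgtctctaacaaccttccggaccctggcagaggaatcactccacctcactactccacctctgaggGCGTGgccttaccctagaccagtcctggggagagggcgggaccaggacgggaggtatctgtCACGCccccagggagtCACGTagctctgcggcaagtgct
Slc16a3 has 2 matches to ACGTG, Slc2a1 has 1 to each core, and the Aldoc window has 1 to ACGTG and 2 to GCGTG. The other Aldoc promoter, chr11:78323948-78324247, has 1 match to GCGTG and 0 to ACGTG. The core ACGTG stands in 19.6% of the 32851 promoters and in 21 of the members' 50, and GCGTG in 32.4% and in 27 of 50. Gpi1, Tpi1 and Pgam2 did not overlap between the control sets either, and their promoters have 0 matches to ACGTG and 0 to GCGTG. A match describes the letters in the window and is not a binding site.

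From a list of 36 other genes of glycolysis and sugar transport, 1 rose and 2 fell of 24 tested with N1OE in culture, where 4.73% of all genes rose and 6.03% fell. Galm, an aldose epimerase (-1.73 ± 0.18, limma adjusted p = 0.00359), and the transporter gene Slc2a10 (-3.12 ± 0.61, limma adjusted p = 0.0248) fell, and Slc16a7, the carrier MCT2, rose (1.67 ± 0.35, limma adjusted p = 0.0303). After engraftment 0 were higher and 4 lower of 28 tested against all controls (3.78% and 3.29% of all genes). It was 3 and 3 of 28 against marked controls (6.26% and 5.47%) and 1 and 7 of 27 against unmarked ones (9.33% and 10.1%). The shares of all genes in these comparisons are the same for the lists that follow. Lower against all controls were, among others, Slc2a10 (-1.54 ± 0.29, limma adjusted p = 0.00245), the inositol carrier Slc2a13 (-2.07 ± 0.40, limma adjusted p = 0.00277) and Gpd2, the mitochondrial glycerol phosphate dehydrogenase (-1.17 ± 0.29, limma adjusted p = 0.0179). Around pyruvate dehydrogenase 2 of 12 genes rose and 1 fell with N1OE in culture. After engraftment 1 rose and 1 fell against all and against marked controls, and 1 rose and 2 fell against unmarked ones: Pdp1, the phosphatase that switches the enzyme back on, rose against all (1.26 ± 0.27, limma adjusted p = 0.00722), marked (1.12 ± 0.32, limma adjusted p = 0.0236) and unmarked controls (1.43 ± 0.34, limma adjusted p = 0.00561), and its effect differed from that in culture (2.23 ± 0.42, limma adjusted p = 0.00256). The malic enzyme gene Me2 fell (-0.99 ± 0.29, limma adjusted p = 0.0397), while it rose in culture (0.80 ± 0.18, limma adjusted p = 0.035), and these effects differed (-1.79 ± 0.41, limma adjusted p = 0.0118). In culture 2 of 18 glycogen genes fell and 0 rose, the targeting subunits Ppp1r3b (-3.42 ± 0.48, limma adjusted p = 0.00971) and Ppp1r3c (-3.70 ± 0.53, limma adjusted p = 0.00988). After engraftment 0 of 20 passed against all or marked controls in limma, and 8 fell against unmarked ones. Of 30 regulators of glycolysis 0 were higher and 1 lower with N1OE against all controls, 3 and 1 against marked and 2 and 2 against unmarked ones. The 1 against all controls was Hif1a, the oxygen-regulated factor (-0.97 ± 0.28, limma adjusted p = 0.0414), from 58.9 to 181 CPM in controls to 44.0 to 70.3 CPM. In culture 2 of 28 regulators rose and 2 fell, among the latter Prkaa2, a catalytic subunit of AMP kinase (-1.59 ± 0.21, limma adjusted p = 0.00801). Of 10 pentose phosphate and 18 citrate cycle genes limma called 0 with N1OE in culture. After engraftment 1 citrate cycle gene fell against all controls, Suclg2, a subunit of succinyl-CoA ligase (-1.74 ± 0.46, limma adjusted p = 0.0263), and 0 pentose phosphate genes passed. Against marked controls 0 citrate cycle genes passed in limma, and against unmarked ones 0 rose and 2 fell. Between re-isolated and cultured controls 1 pentose phosphate gene was higher and 7 lower, and 2 citrate cycle genes were higher and 6 lower. Of all genes 24.1% were higher and 33.9% lower there.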

How the data were processed

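RNA was sequenced from 23 libraries in 5 groups. Per the submitters' processing notes, the authors trimmed reads with Trimmomatic 0.33, checked them with FastQC, counted them with featureCounts and used edgeR on mm10 (the sources used here name no aligner or annotation). The deposited values are log2 CPM of 21264 genes, and the lowest, -4.19, stands for 0 reads. Whole reads were recovered for every value, at most 0.00098 from a whole number; whether the authors adjusted counts first is not stated, and they were treated as raw reads in intervals and in limma-voom.

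The log2 CPM values were tested as they stand with limma 3.58.1 in R 4.3.3 (eBayes with trend, two-sided) over genes reaching 1 CPM in 3 or more libraries, with Benjamini-Hochberg adjustment over all genes and a threshold of 0.05. Fits held the cultured groups, the 3 re-isolated groups, both controls, or, for the difference of the N1OE effects, all 5 groups; control sets were fitted separately. Tables used Python 3.11.15 and pandas 2.3.3, figures matplotlib 3.10.9 and copies BLAST 2.17.0. Totals of 11637817 to 29154176 reads set the counting precision. The code was tested on simulated data. Every member is named, though not with its value in every comparison. From other lists, counts and at most 3 genes with the smallest p per comparison are given. Members and lists were chosen with earlier results of these data known. Gene coordinates are from GENCODE M21 (GRCm38) and promoters from RefSeq. Alternatives were other pseudocounts, filters, scaling, array weights, limma-voom, a replicate block, the compared groups alone, single control sets and leaving out each library. A fit of marked cultured libraries only was added after seeing the data.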

Additional observations from a re-analysis of the deposited data

Results flagged for a closer look

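In groups of 4 to 10 libraries, 5 of 102 combinations of member and group had 1 library far from the rest (4.9%, where chance gives about 1 in 20). Pfkm was at 106 CPM in re-isolated N1OE replicate 3, with the next at 41.7 CPM. Pgam1 was at 206 CPM in re-isolated N1OE replicate 1, with the next at 108 CPM. Slc2a4 was at 0.0346 CPM in re-isolated control replicate 1, a marked library, with the next at 1.44 CPM. Pdk3 was at 67.2 CPM in re-isolated N1OE replicate 4, with the next at 21.2 CPM. Pfkfb2 was at 5.34 CPM in cultured control replicate 3, with the next at 7.26 CPM.

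The effect of N1OE on Slc2a3 differed between the settings, by -3.54 on the log2 scale (limma adjusted p = 0.00358 for the difference itself), with a rise in culture and overlapping groups after engraftment.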

How the results depend on the processing

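The number of members called moved with the processing in most comparisons. For cultured N1OE (4 called) it was 1 with no filter, 9 with array weights, 2 with limma-voom and, in the fit added after seeing the data, 0 with marked libraries only, where the genes called over the whole table were also 0. For re-isolated N1OE (3 called) it was 1 with a replicate block and 15 against unmarked controls alone. For N1KO (0 called) it was 1 with array weights, 3 against marked and 2 against unmarked controls. For N1OE against N1KO (1 called) it was 2 with array weights, 0 with limma-voom, 0 with a replicate block and 2 with the compared groups alone. For the difference of the N1OE effects (1 called) it was 2 with a pseudocount of 5 CPM, 3 with array weights, 3 with marked and 8 with unmarked controls. Between marked and unmarked controls (20 called) it was 13 with no filter and 0 with sets by description. Leaving out 1 library gave 0 to 6 calls for cultured N1OE, 1 to 3 for re-isolated N1OE, 0 to 0 for N1KO, 0 to 1 for N1OE against N1KO, 15 to 21 between re-isolated and cultured controls, 1 to 2 for the difference and 14 to 21 between the control sets. Over all genes tested, the number called also moved by over 1.5 times. For cultured N1OE (1325 called) it was 743 with no filter and 3613 with array weights. For re-isolated N1OE (1000) it was 445 with the block, 1627 against marked and 2691 against unmarked controls. For N1KO (93) it ran from 35 with the compared groups alone to 1008 against unmarked controls, with 61 for the block, 240 and 321 for pseudocounts of 1 and 5 CPM, 285 for limma-voom, 492 for array weights and 544 against marked controls. For N1OE against N1KO (1040) it was 2067 with array weights and 1608 with the compared groups alone. For the difference (475) it was 1267 with array weights, 223 with limma-voom, 967 with marked and 1546 with unmarked controls. Limma-voom called 957 genes for cultured N1OE, 913 for re-isolated N1OE, 740 for N1OE against N1KO, 7655 between the settings and 3530 between the control sets. Of 981 alternative values for calls, 827 kept direction and call, 154 lost the call and 0 reversed. Aldoc reversed in 2 values against unmarked controls alone, to -4.14 for N1KO and 3.54 for re-isolated against cultured control. Those fits leave out the marked controls, which held 0 to 0.0606 CPM, beside 39.2 to 74.6 CPM in unmarked ones. Why the 2 sets differ was not tested. Correlations of deviations between same-numbered libraries were 0.037, 0.071 and 0.468 in culture and -0.158 to 0.154 after engraftment, so not every pair exceeded 0.1 and the numbers were not taken to pair libraries; the replicate block is given for its counts only. Depth limits Aldoc in marked controls, with 3 reads, and ENSMUSG00000114515, with 25 reads there and 26 in N1KO.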
